A study of Danio rerio with 12 samples.

Results

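The mitochondrial carriers are the slc25 gene family, taken here as every row of the 6 deposited zebrafish (Danio rerio) tables whose name begins with slc25a. The name matches 39 of the 32312 rows listed in each table, and 1 of them was left out by the rule, so the family described here has 38 members. Whole fish were dissociated and their cells sorted on GFP before RNA sequencing, with 1 GFP-positive and 1 GFP-negative library in each of 6 experiments, 12 libraries in all. The GFP-positive cells carried the label in the ETvmat2:GFP enhancer trap line at 24 h after fertilization, in Tg(otpb.A:egfp)zc48 at 24 h, in fish with a th:Gal4VP16 driver and a UAS:EGFP responder at 36 h and at 48 h, and in th:GFP BAC fish (a bacterial artificial chromosome with the gene of tyrosine hydroxylase) at 72 h and at 96 h. Against each stood the unlabelled cells of the same line and age, which are a mixture of all other tissues. NanoCAGE, a method that captures 5′ ends of capped RNA, was used at 24 h, and amplified polyadenylated RNA was sequenced at the later ages. The lines are meant to mark catecholaminergic neurons. Per the series' design text, the otpb line also marks some preoptic neurons, the lines used at 24 h mark other cell populations later on, and the th lines label poorly at early stages.

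Each group is 1 library, so no value has a spread between replicates, there is no test, and every interval covers counting error only. Exon reads per library were between 495373 and 1367216 in the NanoCAGE set, between 21326333 and 27682819 at 36 and 48 h and between 52869 and 79653 at 72 and 96 h. The libraries at 72 and 96 h are therefore too shallow for most carriers. The tyrosine hydroxylase gene th had more reads in GFP-positive than in GFP-negative cells in all 6 pairs, between 1 against 0 in the otpb experiment and 272 against 31 at 48 h. The monoamine transporter gene slc18a2, on the same list, went the other way at 36 h, with 0 reads in GFP-positive and 8 in GFP-negative cells. The genes of the enzymes after tyrosine hydroxylase, dbh and ddc, went with th at 36 h. Dbh had 204 reads in GFP-positive and 4 in GFP-negative cells there, and ddc had 107 and 24. The measured list summed to 355 and 54 reads at that age. Neither the GFP-positive nor the GFP-negative vmat2 library had a read of dbh or ddc. In that pair slc18a2 had 9 reads in GFP-positive and 0 in GFP-negative cells. Other cell types were present on the GFP-positive side: 6 cardiac muscle markers summed to 2265 CPM (reads relative to library size) against 26.4 CPM in the vmat2 pair and to 1433 CPM against 4.97 CPM at 36 h. In the vmat2 pair 5 leukocyte markers summed to 1322 CPM in GFP-positive and 2.56 CPM in GFP-negative cells, and 4 endothelial markers to 2773 and 106 CPM. In the th:Gal4 pairs 7 periderm and epidermis markers summed to 37409 CPM in GFP-positive and 3294 CPM in GFP-negative cells at 36 h, and to 62213 and 4040 CPM at 48 h. The 3 hatching gland markers summed to 11584 CPM in GFP-positive and 22.2 CPM in GFP-negative cells at 36 h, to 4009 and 144 CPM at 48 h, and to 638 and 38.3 CPM in the vmat2 pair. In such sorted bulk samples, fewer cells of a type and less RNA per cell cannot be told apart.

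Carriers of this family sit in the inner mitochondrial membrane and move nucleotides, phosphate, amino acids, organic acids and cofactors between the cytosol and the matrix. They share a fold built from repeats of a pair of membrane helices. ADP/ATP and phosphate carriers serve ATP synthesis in every respiring cell, and others serve single pathways, such as the malate-aspartate shuttle of neurons and muscle or the making of heme in red cells. The members were sorted by these roles into 3 ADP/ATP exchangers, 2 phosphate carriers, 2 ATP-Mg/phosphate carriers, 4 aspartate and glutamate carriers, 3 carriers of citrate and other organic acids, 2 uncoupling-like proteins, 3 genes tied to iron and heme, 9 carriers of cofactors, nucleotides and fatty acyl groups, 5 carriers of basic and branched amino acids and 5 others. RefSeq (GRCz12tu) lists 32 of the 38 names as current symbols and 4 as synonyms, and the name slc25a22 used in these tables is now a synonym of slc25a55a there.

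Levels spanned a wide range in the deep th:Gal4 libraries. In RPKM (exon reads relative to exon length and library total), the ADP/ATP carrier gene slc25a5 (chromosome 14, 33738538 to 33741051 on Zv9) had 819.7 in GFP-positive and 1517 in GFP-negative cells at 36 h. At 48 h it had 3041 RPKM in GFP-positive and 1866 RPKM in GFP-negative cells. This single gene was assigned 78.4% and 79.0% of the members' reads at 36 h and 82.5% and 81.1% at 48 h, in GFP-positive and GFP-negative cells each time. How many of these reads were unique is not known for the th:Gal4 libraries. In the vmat2 pair 0 of 46 and 9 of 313 reads of slc25a5 were unique, as described below. The phosphate carrier gene slc25a3 (chromosome 25, 3362750 to 3377426) was next, with 35.0 and 90.5 RPKM in GFP-positive and GFP-negative cells at 36 h. Its levels at 48 h were 169 RPKM in GFP-positive and 103 RPKM in GFP-negative cells. After it came slc25a22 (chromosome 6, 49036236 to 49047646), with 19.4 and 24.8 RPKM at 36 h and 50.03 and 23.6 RPKM at 48 h, GFP-positive before GFP-negative. The order of these 3 genes was the same in all 4 libraries.

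**Figure D1:**
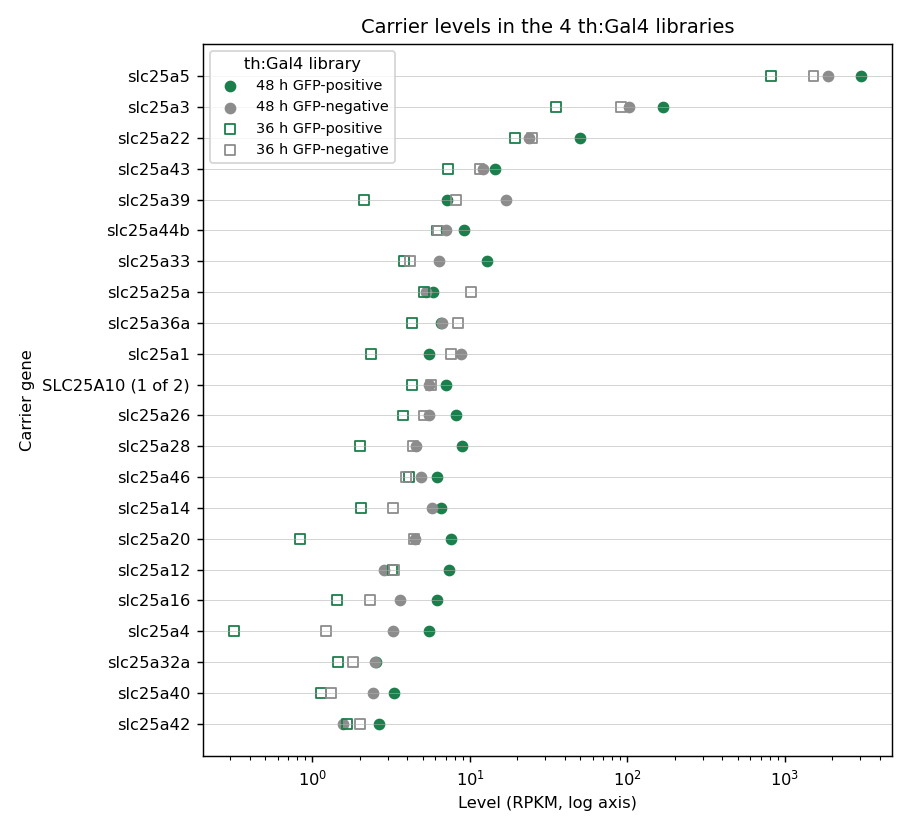
Level in RPKM (log axis) of the 22 carriers that reached the minimum in a th:Gal4 pair, in each of the 4 th:Gal4 libraries (circles 48 h, open squares 36 h, green GFP-positive, grey GFP-negative), with genes ordered by their mean level. Slc25a5 lies between 819.7 and 3041 RPKM, and most other carriers lie between 1 and 10 RPKM.

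Below these, 20 members at 48 h had between 1 and 10 RPKM in GFP-positive cells and 19 in GFP-negative cells, and 13 and 14 members were under 1 RPKM. The other ADP/ATP exchangers were rare in these counts. Slc25a4, whose mammalian counterpart is the exchanger of heart and skeletal muscle, had 5.50 RPKM in GFP-positive and 3.26 RPKM in GFP-negative cells at 48 h, and slc25a6 had 1 read against 0. Slc25a47a, named after a mammalian liver carrier, had 21 reads against 44 at 48 h.

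For the comparisons, a gene was considered if the library with its higher CPM held at least 5 CPM and 20 reads, and ratios are log2 of GFP-positive over GFP-negative after TMM scaling, with 95% exact counting intervals. A member is counted as higher or lower from 2-fold on, a log2 ratio of 1 or -1. In all, 22 of the 38 members were considered in at least 1 experiment, 20 in both th:Gal4 pairs and 3 (slc25a3, slc25a5 and slc25a43) in all 6 experiments. The 16 others had few reads in every library. Because a gene can be considered through its higher library alone, a member's share of calls is read beside the share over all genes considered. Every such share is with TMM scaling and the minimum above, also where a count with library size scaling stands beside it. No share over all genes is given for another setting.

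At 36 h the family stood close to the average gene. None of 20 considered members was at least 2-fold higher, where 13.9% of the 9935 genes considered were, and 2 members were at least 2-fold lower, where 10.4% of genes were. The median log2 ratio of the members was 0.01, against -0.08 over all considered genes, and 11 members lay above 0 and 9 below. Summed over the family there were 48834 reads in GFP-positive and 87809 in GFP-negative cells (log2 ratio -0.20, interval -0.21 to -0.18). Scaling by library size alone lowers the ratios at 36 h by about 0.74, which makes that sum -0.94 and puts 7 members at least 2-fold lower, so directions of members near 0 at 36 h turn with the scaling.

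The members lower at 36 h were slc25a20 and slc25a39. Slc25a20 (chromosome 22, 203830 to 208170), the carnitine and acylcarnitine carrier that brings fatty acids in for oxidation, had 39 reads in GFP-positive and 202 in GFP-negative cells (log2 ratio -1.69, interval -2.26 to -1.22). Its annotated span lies wholly within that of another gene, zgc:112334, so its reads may be shared with it. Slc25a39 (chromosome 3, 30023938 to 30042619), a glutathione carrier in mammals that zebrafish need for heme synthesis, had 153 reads in GFP-positive and 573 in GFP-negative cells (log2 ratio -1.25, interval -1.52 to -0.997). Just short of 2-fold stood slc25a1, the citrate carrier, with 148 reads in GFP-positive and 465 in GFP-negative cells, a log2 ratio of -0.996. Phosphate carrier slc25a3 had 2448 reads in GFP-positive and 6200 in GFP-negative cells (-0.69, interval -0.76 to -0.63).

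At the other end, slc25a46, a carrier relative of the outer membrane, had 277 reads in GFP-positive and 259 in GFP-negative cells (0.74, interval 0.50 to 0.99). The aspartate and glutamate carrier slc25a12 (chromosome 6, 3775245 to 3852968), part of the malate-aspartate shuttle, had 476 and 474 reads (0.65, interval 0.47 to 0.84). Slc25a44b, whose mammalian counterpart carries branched-chain amino acids, had 574 and 575 reads (0.64, interval 0.48 to 0.81). With library size scaling these ratios at 36 h were 0.00 for slc25a46, -0.09 for slc25a12 and -0.10 for slc25a44b.

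At 48 h most carriers lay on the GFP-positive side, by less than 2-fold. Of 22 considered members 18 had a log2 ratio above 0, a share of 81.8%, where 46.3% of the 10030 genes considered lay above 0. Among these members slc25a25a, slc25a14, slc25a43, slc25a46 and slc25a40 had counting intervals that included 0. The median was 0.35 for the members and -0.08 for all considered genes, and the summed reads were 161003 in GFP-positive and 111864 in GFP-negative cells (log2 ratio 0.54, interval 0.53 to 0.55). At least 2-fold higher was 1 member (2 with library size scaling), where 17.6% of all genes were, and 1 member was lower by as much, where 6.53% were. The family at 48 h is thus described by many small shifts, and not by a share of 2-fold calls above that of all genes.

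**Figure D2:**
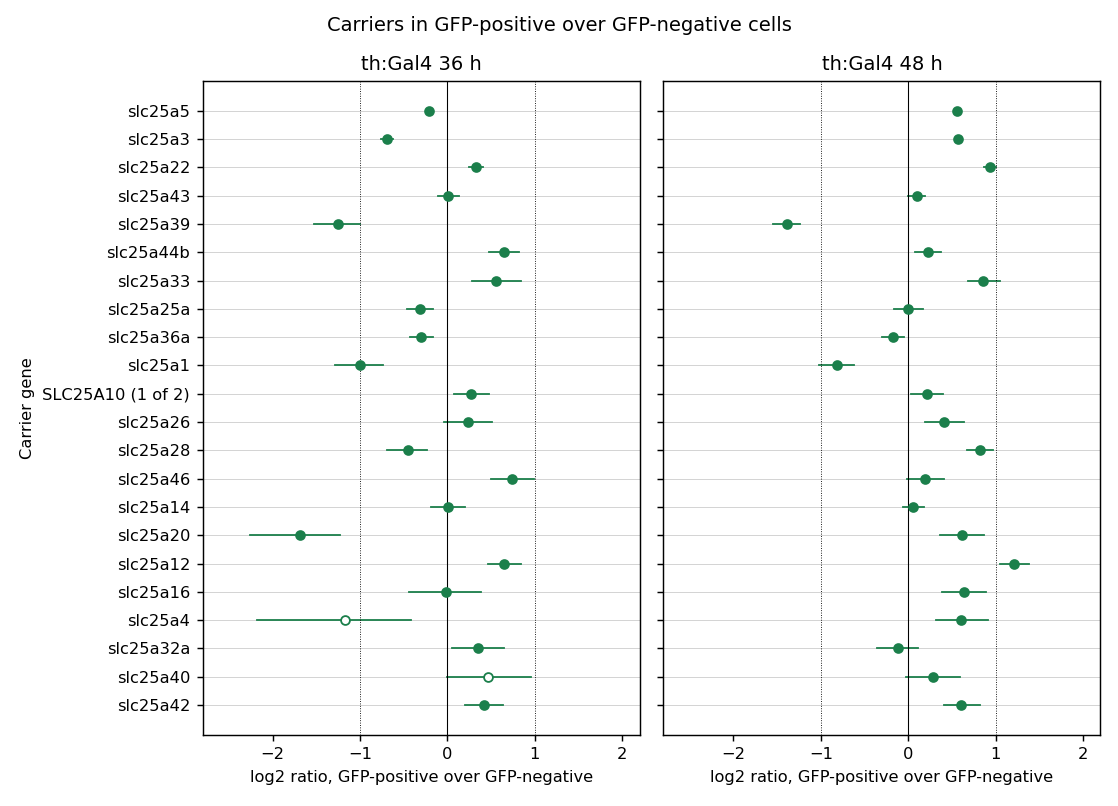
Log2 ratio of GFP-positive over GFP-negative cells at 36 h (left) and 48 h (right) for the 22 carriers, with 95% exact counting intervals as bars. Filled points are considered genes, open points fall under the minimum, and dotted lines mark 2-fold. At 48 h 18 of 22 points lie right of 0, and slc25a39 lies left of the 2-fold line at both ages. With library size scaling the ratios at 36 h are lower by about 0.74.

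The member at least 2-fold higher at 48 h was slc25a12, with 1012 reads in GFP-positive and 439 in GFP-negative cells (log2 ratio 1.21, interval 1.05 to 1.38). In level this was 7.32 RPKM in GFP-positive against 2.85 RPKM in GFP-negative cells. Its annotated span shares 19619 bases with that of tlk1b, and the counting rule for shared exons is not given in the sources used here. Slc25a22 followed with 4876 reads in GFP-positive and 2563 in GFP-negative cells (0.94, interval 0.87 to 1.01). Summed over the 4 aspartate and glutamate carriers, 5892 reads stood against 3007 (0.98, interval 0.92 to 1.05), the highest of the 10 role groups at this age. Most of these reads were of slc25a22, and slc25a12 gave nearly all of the rest. The role of slc25a22 was taken from that name, now a synonym of slc25a55a.

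The energy carriers shifted less. Slc25a5 had 132837 reads in GFP-positive and 90682 in GFP-negative cells (0.56, interval 0.55 to 0.57), and slc25a3 had 11041 and 7473 reads (0.57, interval 0.53 to 0.62). Among nucleotide and iron carriers, slc25a33, for pyrimidine nucleotides, had 672 reads in GFP-positive and 372 in GFP-negative cells (0.86, interval 0.68 to 1.05). Slc25a28, the mitoferrin that imports iron outside the red cell lineage, had 980 reads in GFP-positive and 558 in GFP-negative cells (0.82, interval 0.67 to 0.98). The 4 members below 0 were slc25a39, slc25a1 (322 and 572 reads, -0.81, interval -1.02 to -0.62), slc25a36a (1008 and 1148 reads, -0.18) and slc25a32a (286 and 313 reads, -0.12). Of these slc25a32a, for folate, was at 0.02 with library size scaling.

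Slc25a39 was the lowest considered member at 48 h, with 482 reads in GFP-positive and 1271 in GFP-negative cells (log2 ratio -1.38, interval -1.54 to -1.24). The other members of the iron and heme group lay on the other side at 48 h: slc25a28 at 0.82, as above, and slc25a40, a paralogue of slc25a39, at 0.28 (192 and 159 reads, interval -0.03 to 0.60). At 36 h slc25a28 lay on the side of slc25a39, with 235 and 505 reads (-0.45, interval -0.69 to -0.23, and -1.19 with library size scaling). Slc25a40 was under the minimum there, with 71 and 80 reads (0.46, and -0.26 with library size scaling). Red cell markers moved with slc25a39 at both ages. All 8 measured members of the erythroid list were at least 2-fold lower at 36 h and at 48 h, and summed to 2603 CPM in GFP-positive against 24532 CPM in GFP-negative cells at 36 h and to 5681 CPM against 95304 CPM at 48 h. None of the 8 was at 0 in any of these libraries. The part of red cells in the slc25a39 values was not tested.

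Markers of other cell types also differed between the fractions at 48 h, and not all in the direction of the carriers. The 8 measured skeletal muscle markers summed to 1570 CPM in GFP-positive against 482 CPM in GFP-negative cells, with 5 of 8 at least 2-fold higher. The 8 pan-neuronal markers summed to 793 CPM in GFP-positive against 1422 CPM in GFP-negative cells, with 2 of 8 at least 2-fold lower. At 36 h their sums were 676 and 1398 CPM. None of these markers was at 0. Periderm and epidermis markers, given above, were at least 2-fold higher in 7 of 7 genes at both ages, and 4 pigment cell markers summed to 5292 CPM in GFP-positive against 104 CPM in GFP-negative cells at 48 h. Their part in the carrier values was not tested.

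The th:Gal4 line was profiled with the same assay at both ages, so its reads at 48 h were set against those at 36 h within each fraction. The reads come from tables normalized separately and were scaled here with TMM, and these ratios use the same 4 libraries as the comparisons above. In GFP-positive cells the family summed to 161003 reads at 48 h and 48834 at 36 h (log2 ratio 1.08, interval 1.06 to 1.09), and 8 of 22 considered members were at least 2-fold higher, where 21.3% of 10051 genes were. No member was at least 2-fold lower, where 14.7% of genes were. Library size scaling also takes slc25a14 (1.45), slc25a40 (1.28) and slc25a22 (1.13) past 2-fold higher in GFP-positive cells. The median was 0.55 for the members and 0.14 for all considered genes. In GFP-negative cells there were 111864 reads at 48 h and 87809 at 36 h (0.34, interval 0.32 to 0.35, and -0.027 with library size scaling). There 2 of 22 members were at least 2-fold higher and none lower (1 and 1 with library size scaling), where 5.93% and 6.47% of 9753 genes were, and the median was 0.25 for the members and 0.07 for all genes.

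**Figure D3:**
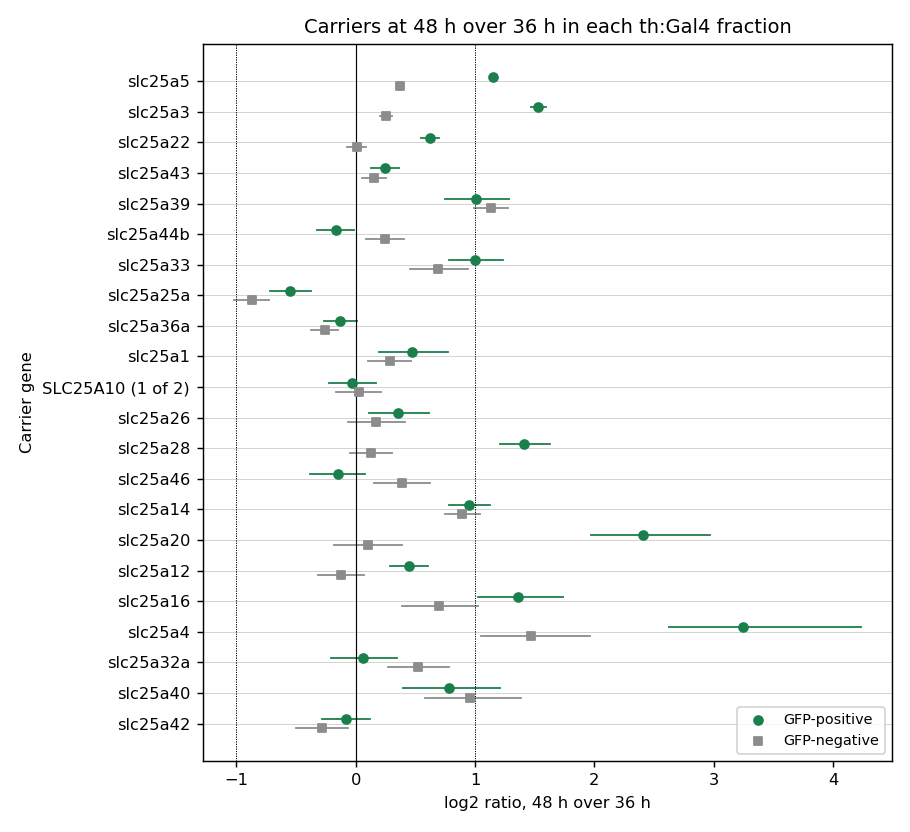
Log2 ratio of 48 h over 36 h for 22 carriers in GFP-positive cells (circles) and in GFP-negative cells (squares) of the th:Gal4 line, with 95% exact counting intervals and dotted lines at 2-fold. In GFP-positive cells 8 carriers reach the right dotted line, led by slc25a4 at 3.25 and slc25a20 at 2.40, and in GFP-negative cells slc25a4 and slc25a39 do. With library size scaling the circles move right by 0.51 and the squares left by 0.36, which takes slc25a39 in GFP-negative cells to 0.77.

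The considered member with the highest ratio over age was slc25a4 (chromosome 1, 16418640 to 16420984). In GFP-positive cells it had 243 reads at 48 h and 15 at 36 h (log2 ratio 3.25, interval 2.62 to 4.23). In GFP-negative cells it had 160 reads at 48 h and 56 at 36 h (1.47, interval 1.05 to 1.97). Skeletal muscle markers moved with it: in GFP-positive cells they summed to 1570 CPM at 48 h and 244 CPM at 36 h, with 7 of 8 at least 2-fold higher, and in GFP-negative cells to 482 and 341 CPM, with 3 of 8. Cardiac markers in GFP-positive cells went the other way, with 242 CPM at 48 h and 1433 CPM at 36 h. Pigment cell markers summed to 5293 CPM at 48 h and 159 CPM at 36 h in GFP-positive cells, and the hatching gland markers to 4010 and 11585 CPM. Leukocyte markers summed to 203 CPM at 48 h and 30.2 CPM at 36 h in GFP-positive cells, with 4 of 5 at least 2-fold higher. In GFP-negative cells their sums were 211 and 155 CPM. The part of these cells in the values over age was not tested.

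Slc25a20 had 333 reads at 48 h and 39 at 36 h in GFP-positive cells (2.40, interval 1.97 to 2.97). In GFP-negative cells its counts were 219 and 202 (0.10, interval -0.18 to 0.39, and -0.26 with library size scaling), so its low value at 36 h belonged to the GFP-positive library. The phosphate carrier slc25a3 had 11041 reads at 48 h and 2448 at 36 h in GFP-positive cells (1.53, interval 1.47 to 1.59), and 7473 and 6200 in GFP-negative cells (0.26, interval 0.21 to 0.30, and -0.11 with library size scaling). Slc25a5 was at 1.15 in GFP-positive cells (interval 1.14 to 1.17) and at 0.37 in GFP-negative cells (interval 0.36 to 0.39, and 0.01 with library size scaling).

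The mitoferrin gene slc25a28 had 980 reads at 48 h and 235 at 36 h in GFP-positive cells (1.41, interval 1.21 to 1.63), with a ratio of 0.13 in GFP-negative cells (interval -0.05 to 0.31, and -0.23 with library size scaling). Slc25a16 had 336 reads at 48 h and 83 at 36 h in GFP-positive cells (1.36, interval 1.02 to 1.74), and 0.69 in GFP-negative cells. The last members past 2-fold in GFP-positive cells were slc25a39 (482 and 153 reads, 1.01, interval 0.75 to 1.28) and slc25a33 (672 and 214 reads, 1.00, interval 0.78 to 1.24). Slc25a39 also passed it in GFP-negative cells, with 1271 reads at 48 h and 573 at 36 h (1.13, interval 0.99 to 1.28, and 0.77 with library size scaling). Erythroid markers moved with it there: they summed to 95312 CPM at 48 h and 24535 CPM at 36 h in GFP-negative cells, with 7 of 8 at least 2-fold higher, and to 5682 and 2603 CPM in GFP-positive cells, with 4 of 7 higher and 1 lower. Their part in the ratios over age was not tested. Just outside stood slc25a14, an uncoupling-like protein that mammals express in brain, at 0.95 in GFP-positive and 0.89 in GFP-negative cells. The lowest considered member over age was slc25a25a, an ATP-Mg/phosphate carrier. It was at -0.55 in GFP-positive cells (578 and 542 reads) and -0.87 in GFP-negative cells (582 and 1054 reads).

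Partner genes were taken from a list of outer membrane channels, protein import, the pyruvate carrier, carrier relatives with other names and regulators of mitochondrial content. Of this list 24 table rows matched. The carrier relatives, which are the uncoupling proteins and mtch2, lie outside the name rule and are not among the 38 members. At 36 h 3 of 20 considered were at least 2-fold higher and 3 lower, where 13.9% and 10.4% of all genes were, and with library size scaling none was higher and 6 were lower. At 48 h 3 of 20 were higher and 1 lower, where 17.6% and 6.53% of all genes were. The counts with TMM scaling lie close to the shares of all genes. Of 4 small chaperones that guide proteins to the inner membrane 3 were at least 2-fold higher at 36 h: timm8a with 857 reads in GFP-positive and 493 in GFP-negative cells (1.44), timm8b with 2030 and 1353 (1.23) and timm9 with 2231 and 1533 (1.19). These ratios were 0.70, 0.49 and 0.45 with library size scaling, short of 2-fold. The fourth, timm10, had 1124 and 1746 reads (0.01, and -0.73 with library size scaling). Lower at 36 h were tomm40l, an outer membrane import gene (294 and 1014 reads, -1.13), and the uncoupling protein genes ucp2 (486 and 1751 reads, -1.20) and ucp3 (121 and 401 reads, -1.07). At 48 h brp44, for a subunit of the pyruvate carrier, had 4624 reads in GFP-positive and 2127 in GFP-negative cells (1.13), and the transcriptional coactivator ppargc1b had 2130 and 610 (1.81).

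Ppif, for cyclophilin D of the permeability transition, had 387 reads in GFP-positive and 119 in GFP-negative cells at 48 h (1.70). Ucp3 was the lowest, with 114 reads in GFP-positive and 1848 in GFP-negative cells (-3.98, interval -4.29 to -3.73). Between 48 and 36 h in GFP-positive cells, 12 of the 20 were at least 2-fold higher and 1 lower with library size scaling. With TMM scaling 7 were higher and 1 lower, where 21.3% and 14.7% of all genes were. The 7 were led by ucp2, with 5841 reads at 48 h and 486 at 36 h (2.94). They held vdac2, an outer membrane channel, with 17171 and 4100 (1.42). The others higher were ppif (1.84), ppargc1b (1.31), tomm40l (1.25), tomm22 (1.11) and ckmt1 (1.02), and tomm70a was lower (419 and 890 reads, -1.72). In GFP-negative cells 3 were higher, ucp3 (2.18), ucp2 (1.55) and ckmt1 (1.38), and 1 was lower, tomm70a (-1.02), where 5.93% and 6.47% of all genes were. In the vmat2 pair 2 of 13 considered partner genes were at least 2-fold higher and 4 lower (6 and 2 with library size scaling), where 24.9% and 15.7% of all genes were. The otpb pair had 2 of 11 higher and 1 lower (2 and 0 with library size scaling), where 10.2% and 25.8% were. Of 4 considered at 72 h and 4 at 96 h none was higher and 1 lower each time (0 lower at 72 h with library size scaling), where 22.7% and 7.02% of all genes were lower.

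At 24 h few carriers had enough reads. In the vmat2 experiment 9 members were considered, of which 4 were at least 2-fold higher and 2 lower by as much (4 and 1 with library size scaling), where 24.9% and 15.7% of the 6303 genes considered were. Slc25a43 is among the higher and slc25a5 among the lower members, and the directions of this overlapping pair are uncertain, as described below. The summed reads were 1237 in GFP-positive and 849 in GFP-negative cells (log2 ratio 0.27, interval 0.14 to 0.39). In the otpb experiment 7 were considered. Of these 2, slc25a43 among them, were at least 2-fold higher and none lower, where 10.2% and 25.8% of 4666 genes were. The sums there were 611 and 1093 reads (0.19, interval 0.05 to 0.34), with the GFP-negative library the deeper one. In that pair hatching gland markers summed to 1696 CPM in GFP-positive and 107 CPM in GFP-negative cells, cardiac markers to 432 and 122 CPM, and endothelial markers to 186 and 454 CPM. Pan-neuronal markers summed to 523 and 209 CPM in the otpb pair (0.89 after TMM scaling). In the vmat2 pair they summed to 296 and 269 CPM (-0.49 after TMM scaling). The part of these cells, and of those given above for the vmat2 pair, in the carrier values at 24 h was not tested.

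**Figure D4:**
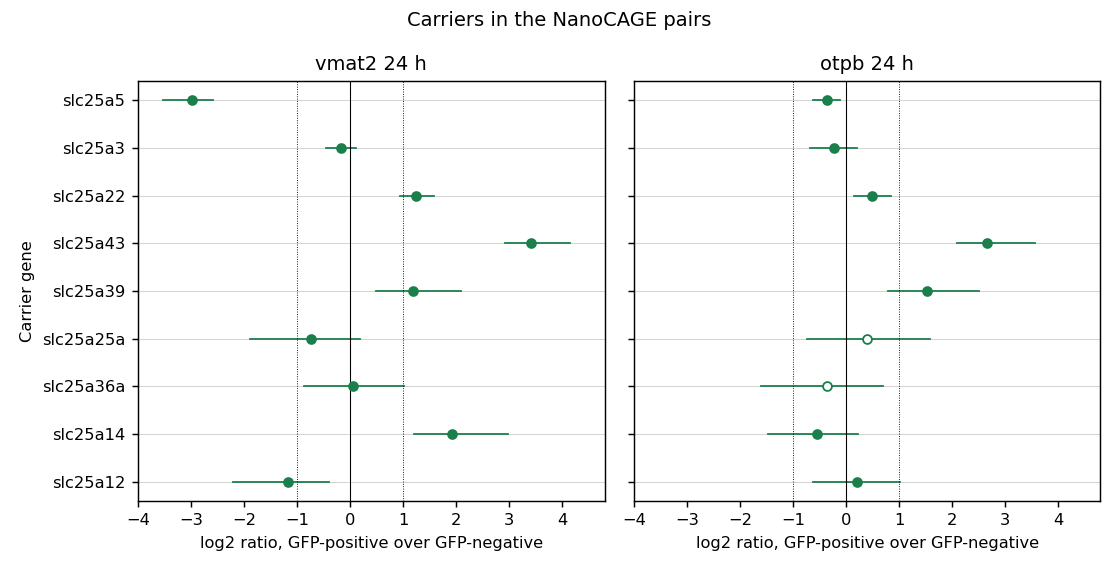
Log2 ratio of GFP-positive over GFP-negative cells in the vmat2 (left) and otpb (right) experiments at 24 h for the 9 carriers considered in either, with 95% exact counting intervals. Open points fall under the minimum and dotted lines mark 2-fold. Slc25a39 and slc25a43 lie right of 2-fold in both panels, and slc25a5 lies at -2.98 in the vmat2 panel.

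In the vmat2 experiment all reads were unique for 6 of the 9 considered carriers: slc25a22, slc25a14, slc25a39, slc25a3, slc25a25a and slc25a36a. In the vmat2 experiment slc25a22 had 310 reads in GFP-positive and 107 in GFP-negative cells (1.24, interval 0.94 to 1.59). In the otpb experiment it had 114 and 165 reads (0.49, interval 0.14 to 0.85), so its ratio was above 0 in both pairs at 24 h, as at 48 h and, except with library size scaling (-0.41), at 36 h. Under the minimum, slc25a22 had 0 and 6 reads at 72 h (-1.87) and 3 and 4 reads at 96 h (-0.42), with intervals that include 0. Slc25a14 (chromosome 21, 37545945 to 37579564) had 70 reads in GFP-positive and 14 in GFP-negative cells in the vmat2 experiment (1.91, interval 1.20 to 2.99), and 17 and 52 reads in the otpb experiment (-0.55, interval -1.46 to 0.23).

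Slc25a39 was higher at 24 h, the opposite of 36 and 48 h. It had 55 reads in GFP-positive and 19 in GFP-negative cells in the vmat2 experiment (1.18, interval 0.48 to 2.09) and 32 and 21 reads in the otpb experiment (1.52, interval 0.80 to 2.51). Of 6 erythroid markers considered in each pair at 24 h none was at least 2-fold higher, 2 were lower in the vmat2 pair and 1 in the otpb pair. For vmat2 the list summed to 419 CPM in GFP-positive against 361 CPM in GFP-negative cells. After TMM scaling, as used for the carrier ratios, that sum was lower in GFP-positive cells (-0.42, interval -0.62 to -0.21). For otpb it summed to 404 against 527 CPM (-0.82 after TMM scaling, interval -1.05 to -0.59). Slc25a12 was lower in the vmat2 experiment, with 17 reads in GFP-positive and 34 in GFP-negative cells (-1.18, interval -2.21 to -0.40, and -0.60 with library size scaling), and had 21 and 37 reads in the otpb experiment (0.20, interval -0.63 to 1.02). Among members under the minimum, the folate carrier slc25a32a had 19 reads in GFP-positive and 0 in GFP-negative cells of the vmat2 experiment. Set against a floor of 3 reads in the GFP-negative library, this is 5.23-fold higher. Its counting interval starts lower, at a log2 ratio of 1.95. In the otpb experiment slc25a46 had 7 reads against 0, which is 4.77-fold higher by the same floor, with an interval from a log2 ratio of 1.56.

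The pair slc25a5 and slc25a43 needs to be read together, because their annotated spans on chromosome 14 share 2508 bases and slc25a43 runs from 33738544 to 33750637. In the vmat2 experiment slc25a5 had 46 reads in GFP-positive and 313 in GFP-negative cells (-2.98, interval -3.52 to -2.59), and slc25a43 had 358 and 26 (3.42, interval 2.93 to 4.14). Of these reads, 0 of 46 and 9 of 313 were unique for slc25a5, and 0 of 358 and 1 of 26 for slc25a43, in GFP-positive and GFP-negative cells each time. The other carriers considered in that experiment had mostly unique reads. Added up, the pair had 404 reads in GFP-positive and 339 in GFP-negative cells, a log2 ratio of -0.02 (interval -0.24 to 0.19). The opposite directions of the pair are therefore uncertain, since nearly all reads in the deposited totals were not counted as unique. Whether such reads matched several sites or lay within both genes is not given in the sources used here.

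The split between the genes also differed in other pairs. Slc25a43 took 88.6% of the reads of the pair (exact interval 85.1% to 91.5%) in GFP-positive and 7.67% (5.07% to 11.0%) in GFP-negative cells of the vmat2 experiment. In the otpb experiment it took 28.8% (23.4% to 34.8%) in GFP-positive and 4.31% (2.72% to 6.46%) in GFP-negative cells. In the deep th:Gal4 libraries its share was between 1.27% and 2.36%. At 72 h it was 5.28% in GFP-positive and 10.1% in GFP-negative cells, and at 96 h 33.4% and 10.8%. Added up, the pair had 260 and 510 reads in the otpb experiment (0.06, interval -0.16 to 0.28), 322 and 473 at 72 h (-0.19, interval -0.40 to 0.02) and 419 and 380 at 96 h (-0.10, interval -0.31 to 0.10). All of these intervals include 0. In the deep th:Gal4 pairs the added-up ratio was -0.21 (interval -0.22 to -0.19) at 36 h and 0.55 (interval 0.54 to 0.57) at 48 h. Neither of these intervals includes 0.

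**Figure D5:**
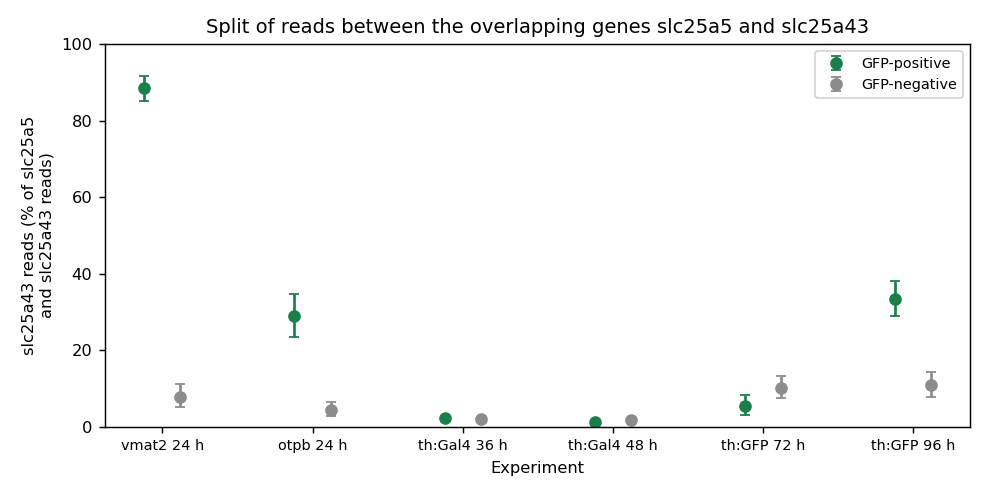
Share of slc25a43 in the reads of slc25a5 and slc25a43 together (percent) for each experiment, with GFP-positive cells left of GFP-negative cells and 95% exact intervals. The share is 88.6% in the vmat2 GFP-positive library and between 1.27% and 2.36% in the 4 th:Gal4 libraries.

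At 72 and 96 h the same 3 members were the only ones considered. At 72 h slc25a3 had 32 reads in GFP-positive and 66 in GFP-negative cells (-0.65, interval -1.34 to -0.05), and slc25a5 had 305 and 425 (-0.11, interval -0.33 to 0.10, and 0.11 with library size scaling). Slc25a43 had 17 and 48 reads there (-1.06, interval -2.02 to -0.31, and -0.85 with library size scaling), and 22.7% of the 415 genes considered were at least 2-fold lower and 5.06% higher. At 96 h slc25a3 had 63 and 46 reads (0.20, interval -0.36 to 0.79), slc25a5 had 279 and 339 (-0.52, interval -0.76 to -0.29) and slc25a43 had 140 and 41 (1.49, interval 1.01 to 2.07). Among 456 genes at 96 h, 3.73% were at least 2-fold higher and 7.02% lower. The family took a close share of both libraries at these ages, 0.694% in GFP-positive and 0.716% in GFP-negative cells at 72 h, and 0.750% and 0.743% at 96 h. Its sums were 367 and 570 reads at 72 h (-0.27, interval -0.46 to -0.08) and 529 and 473 at 96 h (-0.08, interval -0.27 to 0.10). Markers of other cells differed in these pairs too. At 72 h skeletal muscle markers summed to 813 CPM in GFP-positive and 3603 CPM in GFP-negative cells (5 of 5 considered at least 2-fold lower), periderm and epidermis markers to 1475 and 7043 CPM (4 of 4 lower) and erythroid markers to 12332 and 2687 CPM (2 of 2 higher). At 96 h skeletal muscle markers summed to 1092 and 3253 CPM (5 of 5 lower), periderm and epidermis markers to 5630 and 5218 CPM and erythroid markers to 1744 and 1572 CPM. Pan-neuronal markers summed to 2213 and 841 CPM at 72 h, and to 2156 and 2263 CPM at 96 h. The part of all these cells in the carrier values was not tested.

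The 16 members considered in no experiment had few reads. At 48 h their levels were under 2 RPKM in both fractions, the highest being slc25a27 (1.74 RPKM in GFP-positive and 1.17 RPKM in GFP-negative cells) and the ornithine carrier gene slc25a15a (1.63 RPKM in GFP-positive and 0.669 RPKM in GFP-negative cells). Slc25a15a had 79 reads in GFP-positive and 36 in GFP-negative cells at 48 h, and 3 and 5 at 36 h. Slc25a13, the second aspartate and glutamate carrier, had 0 and 1 reads at 48 h and 10 and 1 at 36 h, and slc25a12 supplied nearly all reads of that pair of genes in these libraries. The second phosphate carrier gene, slc25a3l, had 12 and 10 reads at 48 h. At 96 h it had 16 and 13 reads, which in those shallow libraries is a level of 134 RPKM in GFP-positive and 108 RPKM in GFP-negative cells, beside 344 and 249 RPKM of slc25a3, so there it missed the minimum through depth alone.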

How the data were processed

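The members and gene lists were chosen with earlier results of these data known. Per the file headers, the authors deposited counts of total and unique exon reads, RPKM, exon lengths and coordinates (Zv9, from the sheet names) for both vmat2 libraries. For every experiment the authors deposited a difference and a signed fold change of RPKM, recorded here with the unit score. The aligner is not given in the sources used here, nor is the rule for reads shared by genes or whether strand was used. The other 5 tables name both libraries alike, so 174 columns of library values were not used. Whole reads were recovered from difference, fold and exon length: all values, to 1 decimal of a percent, lay within 0.02 of a whole number, and in the vmat2 table the recovered reads equalled the deposited counts in all 17237 features with a difference. Direction follows the vmat2 table, where the difference is GFP-positive minus GFP-negative. If another table followed the opposite convention, its directions would turn. A feature with equal levels in both libraries gives no reads.

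Ratios used TMM (edgeR 4.0.16, R 4.3.3) with a prior count of 2, and the GFP-negative or 36 h library as the reference. Intervals are exact (Clopper-Pearson) at 95% and floors are 3 reads. Both cover counting error only and treat each read as independent. Reads without molecular identifiers are not independent molecules, so the intervals can be too narrow even for counting error. Named are the 10 members with the highest mean level at 36 and 48 h, the members past 2-fold, the iron and heme group, partner genes past 2-fold at 36 or 48 h, and some others chosen after their values were seen. Library size and DESeq2 1.42.0 scaling, other minima, another prior count and unique reads were tried. For the partner genes, library size scaling was added after seeing the data. The steps were tested on simulated data.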

Additional observations from a re-analysis of the deposited data

Results flagged for a closer look

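Of the carriers considered in more than 1 experiment, 3 were at least 2-fold higher in GFP-positive cells of one experiment and at least 2-fold lower in another. This held with library size scaling for slc25a39 alone, since slc25a12 in the vmat2 experiment was then at -0.60 and slc25a43 at 72 h at -0.85. Each group is 1 library, and the differences between experiments were not tested. Assay, line and age change together between them.

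Slc25a39 had log2 ratios of 1.18 (vmat2) and 1.52 (otpb) at 24 h, and of -1.25 at 36 h and -1.38 at 48 h. Slc25a12 was at -1.18 in the vmat2 experiment and at 1.21 at 48 h. Slc25a43 was at 3.42 (vmat2), 2.66 (otpb), -1.06 (72 h) and 1.49 (96 h), and nearly all its reads in the vmat2 experiment were not counted as unique.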

How the results depend on the processing

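No paired analysis was possible because each group, a fraction of 1 line at 1 age, holds 1 library and shares no second replicate number with another. A fit with the 6 experiments as blocks, which would take lines, ages and assays that differ as replicates, was not run. With library size scaling the log2 ratio of the summed carrier reads was 0.90 (vmat2), 0.63 (otpb), -0.94 (36 h), 0.67 (48 h) and -0.044 (72 h), and for 48 h over 36 h it was 1.59 in GFP-positive and -0.027 in GFP-negative cells, the last with its direction turned. DESeq2 size factors gave 0.16 at 96 h and, over age, 1.05 in GFP-positive and 0.35 in GFP-negative cells. Without the member with most reads the sums were 0.044 (vmat2), 0.53 (otpb), -0.16 (36 h), 0.42 (48 h), -0.86 (72 h) and 0.65 (96 h). Without slc25a5 and slc25a43, a choice made after seeing the data, they were 0.43 (vmat2), -0.17 (36 h), 0.45 (48 h), -0.74 (72 h) and, over age, 0.81 in GFP-positive and 0.19 in GFP-negative cells. Unique reads gave 0.40 for vmat2.

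Members at least 2-fold higher became 7 (vmat2), 10 (otpb), 1 (36 h), 3 (48 h) and 2 (72 h) with no minimum, 2 at 48 h with library size scaling and 1 for otpb at 10 CPM and 50 reads. Members lower became 3 (otpb), 7 (36 h), 2 (48 h), 3 (72 h) and 2 (96 h) with no minimum. With library size scaling they became 1 (vmat2), 7 (36 h) and 0 (72 h), at 10 CPM and 50 reads 1 (vmat2), 1 (36 h) and 0 (72 h), and 1 with unique vmat2 reads. Over age in GFP-negative cells 1 was higher and 1 lower with library size scaling, and 1 higher at the stricter minimum. No share over all genes is given for these settings, so these counts cannot be set beside all genes. With no minimum a call can rest on few reads, such as 2 against 0 for slc25a40 in the otpb experiment. Among single members slc25a43 turned to -0.64 with unique vmat2 reads, of which it had 0 and 1. Depth limits the experiments at 72 and 96 h to 3 members. Other causes were not tested.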
